A study of Capra hircus with 6 samples.

Results

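The myomiRs are a small group of miRNAs known from striated muscle. By their roles they are the pair miR-1 and miR-133a, the pair miR-206 and miR-133b, miR-499 with both forms of miR-208 (208a and 208b), and miR-486. Their levels come from small RNA libraries of longissimus dorsi, a back muscle, from goats of the Haimen breed, with 3 libraries at each of 2 stages. Lambs were at 1 day of age and fetuses at day 75 of pregnancy. No treatment or genetic change is named for either stage, and the labels do not say whether a library holds 1 animal or several, so the spread behind each p-value is that of these libraries and may be technical. The members were found by name: a listed name belonged to the group when its miRNA, without species prefix, arm, copy number and variant suffix, was among the 8. This gave 17 of the 1120 distinct names listed, and levels were available for all 17. A name stands for 1 exact sequence, so an end variant of a miRNA (an isomiR) or a match to the registry entry of another species has a name of its own. The prefixes here are chi for goat, bta for cattle, mml for rhesus macaque, mmu for mouse, cgr for Chinese hamster and oan for platypus. Suffixes were read in the common way, L for a changed 5′ end, R for a changed 3′ end and ss for a substitution, although the deposited tables do not define them.

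A miRNA is cut from a hairpin precursor, and either arm of the hairpin can be loaded into an Argonaute protein, where bases 2 to 8 of the mature strand, the seed, pair with target messenger RNAs. In muscle, the genes of miR-133a and miR-1 share primary transcripts under control of MEF2, SRF and MyoD. MiR-1 is known to promote differentiation through HDAC4, and miR-133a to restrain SRF and to act on myoblast proliferation. MiR-206 and miR-133b form a second pair of this kind, largely restricted to skeletal muscle. Both miR-208 forms and miR-499 lie within myosin heavy chain genes of heart and slow muscle, and miR-486 lies within an ankyrin gene. In RefSeq's table for the goat (assembly ARS1.2), MIR133A and MIR1 were neighbouring genes, as were MIR133B and MIR206, and MIR499 lay within MYH7B. MIR208B lay within a protein-coding gene listed as LOC102181869.

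The sequences show which members can act through the same seed and which can be told apart by reading them. They are as deposited, 5′ to 3′, with the seed in capitals. MiR-1 and miR-206 share a seed that no other listed miRNA carries, and from the 5′ end miR-206 differs from miR-1 by A11G, A17G, A21G and T22G (positions counted from 1 at the 5′ end, the base of miR-1 first).
chi-miR-1: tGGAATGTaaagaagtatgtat
chi-miR-206_R-1: tGGAATGTaaggaagtgtgtgg

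MiR-133a and miR-133b also share a seed. The 21 bases listed for miR-133b are the first 21 of the 23 bases of miR-133a-3p with 0 differences, so a read separates these names only by where it ends.
chi-miR-133a-3p: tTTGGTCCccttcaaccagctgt
chi-miR-133b: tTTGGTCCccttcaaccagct
chi-miR-133a-5p: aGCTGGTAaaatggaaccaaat

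MiR-486 was listed under a cattle and a hamster entry, as sequences of 23 and 24 bases that differ only by the last 3′ base, and with a new arm from the other side of the hairpin.
bta-miR-486_R+1: tCCTGTACtgagctgccccgagt
cgr-miR-486-5p_R+2: tCCTGTACtgagctgccccgagtt
bta-mir-486-p3: tCGGGTCAgctcagtaccgggc

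The myosin-encoded miR-499-5p and miR-208b have the same bases 2 to 7, which only 3 of the listed names carry, and differ at base 8.
chi-miR-499-5p: tTAAGACTtgcagtgatgttt
chi-miR-208b_L-1R+1: aTAAGACGaacaaaaggtttgt

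The deposited read numbers summed to between 6096009 and 9471852 over the listed miRNAs of a lamb library and to between 8506743 and 13756954 in a fetal library. Levels are given as TMM-scaled CPM: reads per 1000000 of the library's effective size, which TMM (the trimmed mean of M values) sets from the bulk of the miRNAs. Every read covers a whole mature miRNA, so levels of different miRNAs are compared without dividing by length. Reads were not calibrated against known amounts, so an order or ratio of different miRNAs or arms is one of reads. In bulk tissue, a miRNA that is higher per cell and one from cells that make up more of the piece cannot be told apart. A name listed at 0 is given as listed, with no fold, since no source used here says how few reads would be listed. The lowest value above 0 was 5 reads among the members, while 205 of all 5119 values above 0 were under 5.

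Together the members took 29.9%, 23.7% and 22.5% of all reads of listed miRNAs in the 3 lamb libraries, against 8.28%, 7.30% and 8.24% in the 3 fetal libraries. The mean was 25.4% ± 3.94 in lambs and 7.94% ± 0.555 in fetuses (SD, n = 3 each), and the lowest lamb library stood well above the highest fetal library. In the exact permutation test of the summed level, two-sided, p was 0.10, the smallest value that 3 against 3 libraries allow. The largest member, miR-133a, took 17.3% ± 2.65 of the reads of listed miRNAs in lambs and 3.88% ± 0.388 in fetuses (SD, n = 3 each).

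**Figure D1:**
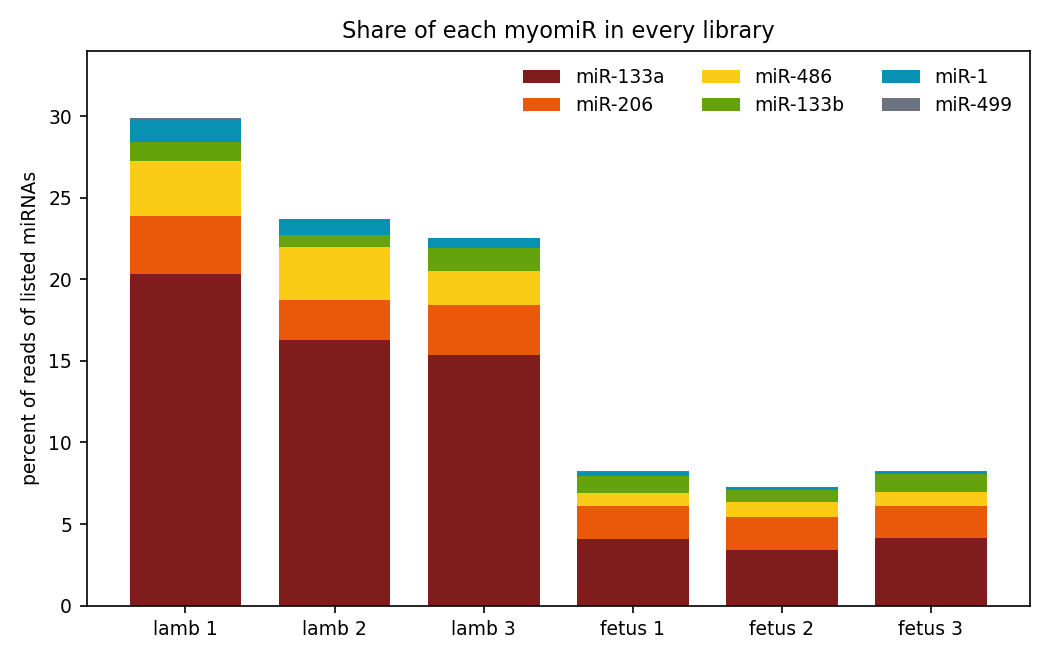
Percent of the reads of listed miRNAs (y axis) that each of 6 myomiRs took in the 3 lamb and the 3 fetal libraries (x axis), stacked. Bars reach 22.5% to 29.9% in lambs and 7.30% to 8.28% in fetuses, miR-133a is the largest block in each, and miR-208a and miR-208b are too rare to draw.

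Of the 17 names, 12 passed the filter on low reads and were tested for a difference between lamb and fetus with edgeR's quasi-likelihood test, with p-values adjusted by Benjamini-Hochberg over all 712 tested names. Adjusted p was under 0.05 and the level higher in lambs for 7 of them, and lower in lambs for 1. The higher names come from miR-1, miR-133a, miR-206 and miR-486 only. Arms and end variants of the same miRNA count as separate names here and in the median below. Over all tested names, 43.4% passed, 16.3% as higher and 27.1% as lower in lambs. The median log2 difference, lamb minus fetus, was 2.05 over the 12 member names and -0.12 over all tested names. The levels of 9 of the 12 did not overlap between the stages, beside 56.9% of all tested names. Among the 12, chi-mir-1-p5, the new 5′ arm of miR-1, passed the filter through its lamb libraries. Its place among the 9 and in the median is therefore no support. This share of higher calls depends on the scaling: of the names that passed, 37.5% were higher in lambs with TMM, 21.6% with all libraries set to the same total and 48.6% with the same median, and the median of all tested names moved to -0.49 and 0.10. Under both of these scalings the same number, 7 member names, was called higher.

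**Figure D2:**
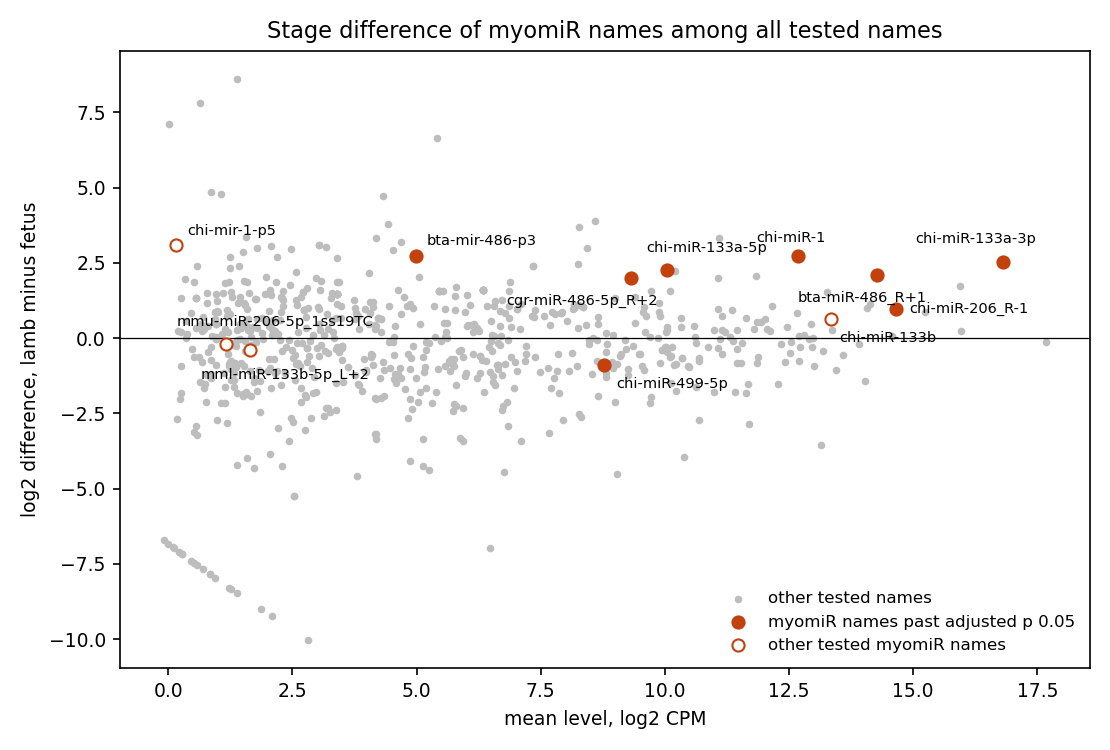
Log2 difference in level, lamb minus fetus (y axis), against the mean level in log2 CPM (x axis) for the 712 tested names. Filled points are the 8 myomiR names past adjusted p 0.05, open points the 4 others, and the line of grey points at the lower left holds names with no lamb reads, whose fitted value is not a measured size. All filled points but chi-miR-499-5p lie above 0.

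MiR-1 and miR-133a had the largest differences among the abundant members. Chi-miR-133a-3p, the main strand, stood at 237606, 173463 and 177111 TMM-scaled CPM in the lamb libraries, against 35706, 29138 and 36436 in the fetal libraries. Each lamb library was several times above each fetal one. It was 5.81-fold higher in lambs (log2 difference 2.54 ± 0.17 SE, edgeR adjusted p = 0.000222). By reads, its rank among all listed names was 1 to 2 in lambs and 3 to 4 in fetuses. The other strand, chi-miR-133a-5p, had 2044, 1796 and 1421 TMM-scaled CPM in lambs and 443, 337 and 323 in fetuses. It rose alongside the main strand (log2 difference 2.25 ± 0.21 SE, edgeR adjusted p = 0.000428).

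Chi-miR-1 stood at 16759, 10220 and 7062 TMM-scaled CPM in lambs, against 2409, 1488 and 1258 in fetuses. The groups did not overlap, and the lamb libraries differed widely among themselves. It was 6.60-fold higher in lambs (log2 difference 2.72 ± 0.39 SE, edgeR adjusted p = 0.00242). Its rank by reads was 11 to 27 in lambs and 63 to 90 in fetuses. The new 5′ arm of its hairpin, chi-mir-1-p5, was counted 18, 8 and 13 times in lambs and 8, 0 and 0 times in fetuses. At these few reads its difference did not pass (edgeR adjusted p = 0.0597). It passed in limma on the authors' normalized values (adjusted p = 0.0153) and without fetus replicate 1 (edgeR adjusted p = 0.0130). Without that library only fetal values of 0 remain, and the name passed the filter through its lamb libraries. Neither pass therefore adds support. The longer form bta-miR-1_R+3 had 13 reads in lamb replicate 1 and 10 in fetus replicate 1, and was listed at 0 in the other 4 libraries.

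The second pair differed less between the stages. Chi-miR-206_R-1, the goat miR-206 shorter by a base at its 3′ end, stood at 41287, 25986 and 35529 TMM-scaled CPM in lambs, against 18207, 17113 and 17227 in fetuses. The fetal libraries were nearly equal, and all lamb libraries lay above them. It was 1.96-fold higher in lambs (log2 difference 0.97 ± 0.17 SE, edgeR adjusted p = 0.00528). MiR-206 is known for its part in regeneration and at the neuromuscular junction. Its partner chi-miR-133b had 13747, 8023 and 16062 TMM-scaled CPM in lambs and 8834, 6290 and 9350 in fetuses. Lamb replicate 2 lay within the fetal range, so the groups overlapped, and the log2 difference of 0.63 ± 0.28 SE did not pass (edgeR adjusted p = 0.120). It passed without lamb replicate 2 (log2 difference 0.88, edgeR adjusted p = 0.0142), with the authors' scaling constants (0.81, edgeR adjusted p = 0.0495) and with replicate numbers as a block (0.59, edgeR adjusted p = 0.0315).

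The assignment of reads to miR-133b limits this value. Numbers of chi-miR-133a-3p and chi-miR-133b ended in a fraction in the same 4 libraries, and those of chi-miR-1 and chi-miR-206_R-1 in the same 2. Whether reads were divided between these names was not tested. With the reads of chi-miR-133a-3p and chi-miR-133b added together, the log2 difference was 2.34 (edgeR adjusted p = 0.000252). The passenger strands of this pair were rare. Mml-miR-133b-5p_L+2 had 38, 8 and 10 reads in lambs and 38, 17 and 58 in fetuses, and mmu-miR-206-5p_1ss19TC had 18, 10 and 13 in lambs and 23, 21 and 31 in fetuses. Neither passed (edgeR adjusted p = 0.675 for the first and 0.727 for the second).

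MiR-486 was higher in lambs under each of its 3 names. Bta-miR-486_R+1 stood at 38751, 33996 and 23573 TMM-scaled CPM in lambs, against 7132, 7570 and 7805 in fetuses. The fetal values were close together and far below the lowest lamb library. It was 4.28-fold higher in lambs (log2 difference 2.10 ± 0.19 SE, edgeR adjusted p = 0.000428). Cgr-miR-486-5p_R+2, longer by 1 base, had 1263, 1031 and 793 TMM-scaled CPM in lambs and 244, 257 and 264 in fetuses (log2 difference 2.01 ± 0.20 SE, edgeR adjusted p = 0.000628). The new 3′ arm bta-mir-486-p3 was counted 517, 297 and 387 times in lambs and 135, 84 and 82 times in fetuses (log2 difference 2.74 ± 0.24 SE, edgeR adjusted p = 0.000376). MiR-486 is also known from red blood cells, whose markers miR-451 and miR-144 were listed under 3 names. Their summed level was 63.2 to 114.2 TMM-scaled CPM in lambs and 114.1 to 250.2 in fetuses. Of the 3 names, chi-miR-144-5p was lower in lambs and the others did not pass. Chi-miR-144-5p itself was rare, with 1.28, 1.06 and 1.23 TMM-scaled CPM in lambs and 3.63, 4.26 and 4.59 in fetuses. The part of red cells in the miR-486 difference was not tested.

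Of the members encoded in myosin genes, only chi-miR-499-5p had enough reads to be tested, and it was the single member name called lower in lambs. It stood at 350, 237 and 329 TMM-scaled CPM in lambs, against 727, 485 and 493 in fetuses. All lamb libraries lay below all fetal libraries, and the level was 1.86-fold higher in fetuses (log2 difference, lamb minus fetus, -0.90 ± 0.24 SE, edgeR adjusted p = 0.0234). This call did not hold without fetus replicate 2 (edgeR adjusted p = 0.0521), without fetus replicate 3 (0.0506), with libraries scaled to the same median (0.128) or with limma at a pseudocount of 0.1 (0.0549), while the direction stayed the same. The opposite arm chi-miR-499-3p_L-1R+1 was listed at 0 in all lamb libraries and with 10, 0 and 7 reads in fetuses. Oan-miR-499-5p, which differs from the goat sequence by C11T, had 5 reads in fetus replicate 3 and was listed at 0 elsewhere.

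MiR-208b, known in mammals from the gene of slow and beta-cardiac myosin, had few reads. Chi-miR-208b_L-1R+1 had 0, 5 and 0 reads in lambs and 10, 10 and 11 in fetuses, too few to be tested. MiR-208a, known from the alpha-cardiac myosin gene, was seen only as its 5p strand, with 7 reads in lamb replicate 2 and 0 in the other 5 libraries.

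**Figure D3:**
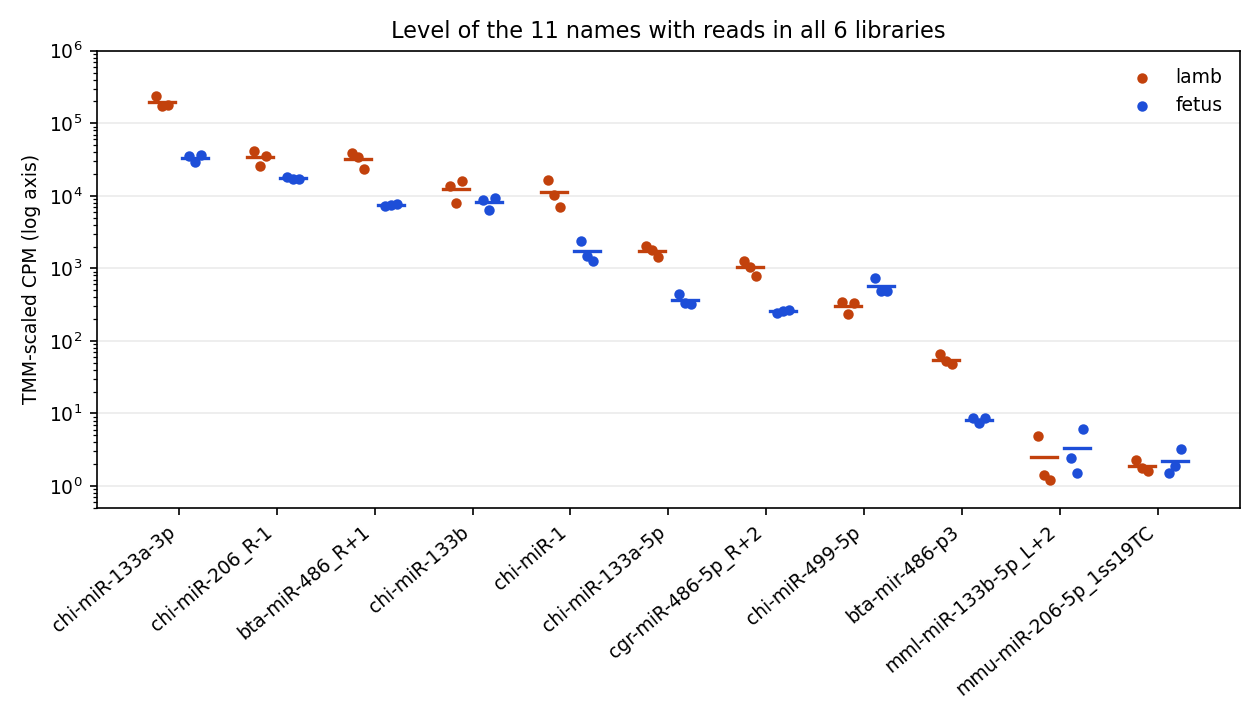
Level in TMM-scaled CPM (y axis, log scale) of the 11 names with reads in all 6 libraries (x axis). Points are libraries and lines are means of 3, lamb left and fetus right of each name. Lamb and fetal points separate for all names but chi-miR-133b, mml-miR-133b-5p_L+2 and mmu-miR-206-5p_1ss19TC, and chi-miR-499-5p is the name with the lamb points below.

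Summed over all names of a miRNA, the members kept a similar order at both stages, with miR-133a at the top. In lambs miR-133a averaged 197814 ± 36268 TMM-scaled CPM, followed by miR-206 with 34269 ± 7728 and miR-486 with 33191 ± 8002 (SD, n = 3 each). The last 2 did not differ beyond their spread. MiR-133b with 12613 ± 4139 and miR-1 with 11349 ± 4947 came next and did not differ beyond their spread either, and miR-499 had 305 ± 59.8 (SD, n = 3 each). In fetuses miR-133a averaged 34127 ± 4041 and miR-206 17518 ± 601, followed by miR-133b with 8161 ± 1640 and miR-486 with 7766 ± 351, which overlapped (SD, n = 3 each). MiR-1 had 1719 ± 610 and miR-499 had 569 ± 137 TMM-scaled CPM in fetuses (SD, n = 3 each). The distance between miR-206 and miR-486 in fetuses, and that between miR-133b and miR-1, exceeded their spread, which was not so in lambs. In the exact permutation test of each sum, two-sided, p was 0.10 for miR-1, miR-133a, miR-206, miR-486 and miR-499, whose stages did not overlap, 0.30 for miR-133b, 0.20 for miR-208b and 1 for miR-208a. The first of these is the smallest possible value, and adjusted over the 8 members it is 0.16.

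Ratios within a library do not depend on scaling between libraries, and they show how the listed reads of the members moved against each other. Chi-miR-133a-3p had 17.3, 21.6 and 11.03 reads per read of chi-miR-133b in the lamb libraries, against 4.04, 4.63 and 3.90 in the fetal libraries. This ratio was 3.84-fold higher in lambs, with no overlap (exact permutation p = 0.10, adjusted p = 0.175 over 7 ratios). These names differ only by where a read ends, so a change of 3′ ends or of read assignment cannot be told apart from a change between the miRNAs. The reads of the names with the same seed, chi-miR-1 over chi-miR-206_R-1, stood at 0.406, 0.393 and 0.199 in lambs and at 0.132, 0.0870 and 0.0730 in fetuses. This ratio was 3.35-fold higher in lambs, again with no overlap (exact permutation p = 0.10, adjusted p = 0.175), and miR-206 outnumbered miR-1 in all 6 libraries.

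Within each transcribed pair the ratios overlapped between the stages. Chi-miR-133a-3p over chi-miR-1 was 14.2, 16.97 and 25.1 in lambs and 14.8, 19.6 and 29.0 in fetuses (exact permutation p = 0.60, adjusted p = 0.60). The log2 difference of this ratio was -0.16, against within-stage SDs of 0.42 in lambs and 0.49 in fetuses. Chi-miR-206_R-1 over chi-miR-133b was 3.003, 3.24 and 2.21 in lambs and 2.06, 2.72 and 1.84 in fetuses (exact permutation p = 0.20, adjusted p = 0.233). Reads listed as chi-miR-133b are told from chi-miR-133a-3p only by where they end, so this second ratio need not be one within the pair. With 3 libraries a stage these tests cannot pass 0.05, so they do not show that the partners moved alike.

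**Figure D4:**
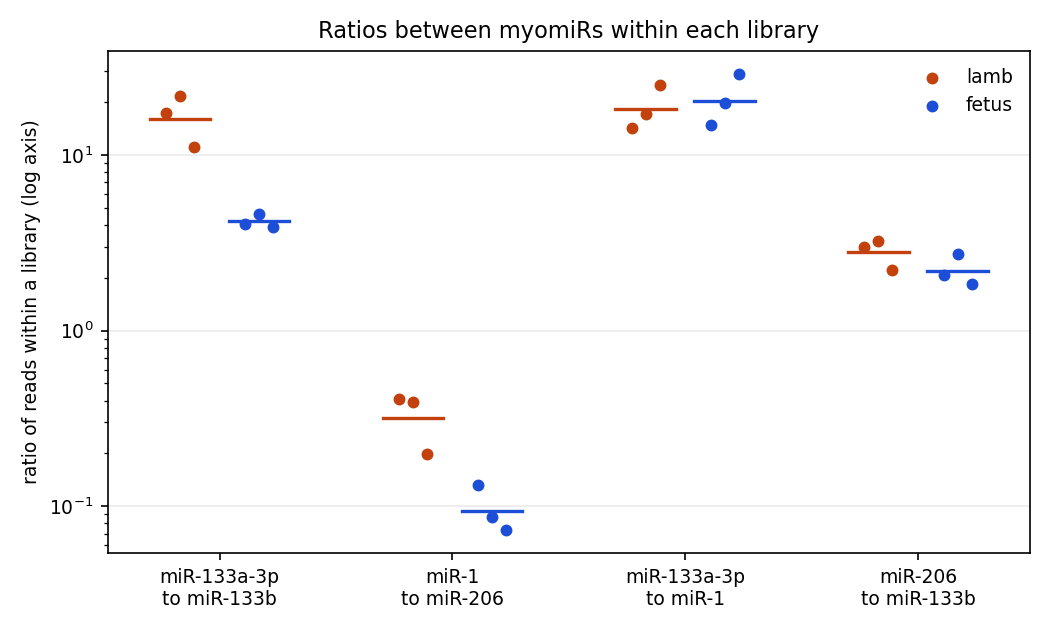
Ratio of reads of 2 members within each library (y axis, log scale) for 4 pairs of names (x axis), with points for libraries and lines for geometric means of 3, lamb left and fetus right. The ratios of miR-133a-3p to miR-133b and of miR-1 to miR-206 do not overlap between stages, whereas those of miR-133a-3p to miR-1 and of miR-206 to miR-133b do. Reads of miR-133a-3p and miR-133b are told apart only by where they end.

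Most reads of a member fell on a single sequence at both stages. The leading name held 99.1% ± 0.119 of the miR-133a reads in lambs and 98.9% ± 0.181 in fetuses (SD, n = 3 each), the rest being the 5p strand. Chi-miR-133a-3p outnumbered this strand 116, 96.6 and 125 times in lambs and 80.5, 86.6 and 113 times in fetuses, with overlap (exact permutation p = 0.20). Reads listed as chi-miR-133b, whose bases all lie within chi-miR-133a-3p, are not counted in the miR-133a share. For miR-486 the leading name held 96.7% ± 0.180 in lambs and 96.6% ± 0.0283 in fetuses (SD, n = 3 each). The form of 23 bases outnumbered the form of 24 bases 30.7, 33.0 and 29.7 times in lambs and 29.2, 29.4 and 29.6 times in fetuses, a narrow separation (exact permutation p = 0.10, adjusted p = 0.175). It outnumbered the 3′ arm 587, 649 and 497 times in lambs and 816, 1016 and 912 times in fetuses, again without overlap (exact permutation p = 0.10, adjusted p = 0.175). For miR-1, miR-133b, miR-206 and miR-499, the other names together held at most 0.253% of a miRNA's reads in any library. None of the 6 shares passed the exact permutation test, which cannot pass 0.05 here.

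Among the 17 names, 9 carried the goat prefix and 8 that of another species. Of all 17, 7 were identical with their registry entry, 8 differed and 2 were new arms. The identical share was 41.2% (95% exact interval 18.4 to 67.1%), beside 26.2% over all 1120 names, an interval that holds this value. Of the 9 goat names 5 were identical, or 55.6%, close to the 57.8% of all 372 goat-prefixed names (215 of them). Changes were at the 3′ end in 6 names, at the 5′ end in 3 and by substitution in 1, some names having both ends changed. Lengths were 20 to 25 bases. The names from other species' entries ranged from 5 reads in a single library (oan-miR-499-5p) to bta-miR-486_R+1 with up to 303349 reads, and no goat-prefixed name of miR-486 was listed. 

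Other miRNAs tied to myogenic differentiation moved in both directions. Of 47 tested names of a list of 19 such miRNAs, 22 were higher and 10 lower in lambs by edgeR's test. Another 15 did not pass. Over all tested names, 16.3% were called higher and 27.1% lower in lambs. The median log2 difference of the list was 0.86, beside -0.12 over all tested names. Among the called names, bta-miR-378_R+2 was listed at 0 in all fetal libraries. Ssc-mir-503-p5_1ss2CA and dno-miR-503-5p_R+2 were listed at 0 in all lamb libraries. Such names passed the filter only through the stage where they are high, so their place in the counts and the median is no support. Many of the 22 are arms and sequence variants of miR-378, so these names are not separate miRNAs. The most abundant called were chi-miR-378-3p (log2 difference 1.72), chi-miR-26a-5p (0.86), chi-miR-27b-3p (1.52) and bta-miR-378_R+1 (2.07), all higher in lambs. MiR-26a is known to act on EZH2 and miR-27b on PAX3 during differentiation. The names outside the group whose level followed that of chi-miR-133a-3p most closely were bta-miR-378_R+1 (Pearson r = 0.999), bta-miR-30d (0.996) and bta-miR-378_L-1R+1_1ss10GT (0.996), over 6 libraries on the log2 scale. The libraries fall into the 2 stages, so these values largely describe a shared stage difference.

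Markers of other cells in the tissue also moved, beside 16.3% of all tested names called higher and 27.1% called lower in lambs. MiR-155 and miR-214, counted below as markers, are also in the myogenic list above. The endothelial miR-126 was higher in lambs for 2 of 3 tested names, with a summed level of 3515 to 3722 TMM-scaled CPM in lambs and 1700 to 2093 in fetuses. Of 5 tested names of white blood cell markers, chi-miR-150 and chi-miR-223-3p were higher and chi-miR-155-5p was lower in lambs, with summed levels of 593 to 1084 TMM-scaled CPM in lambs and 190.0 to 199.8 in fetuses. Most of this sum in lambs was chi-miR-150 (log2 difference 3.89 ± 0.34 SE, edgeR adjusted p = 0.000346). For stroma and smooth muscle, 3 of 10 tested names, from miR-143 and miR-145, were higher and 3, including chi-miR-199a-5p and chi-miR-214-3p_L-1R+3, were lower. Their summed level was 19568 to 31964 TMM-scaled CPM in lambs and 37865 to 44341 in fetuses. The neural markers miR-9 and miR-124a summed to 6.71 to 10.1 in lambs and 11.5 to 20.7 in fetuses, and their tested name did not pass. The part of such cells in the members' differences was not tested.

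The authors' deposited table gives its own p-values, with no adjusted values beside them. In the authors' deposited table p was 0.0112 for chi-miR-133a-3p, 0.0293 for bta-miR-486_R+1 and 0.0398 for chi-miR-206_R-1, names that also passed here. In the authors' deposited table p was 0.0681 for chi-miR-1 and 0.0995 for chi-miR-499-5p, which passed with edgeR, and 0.124 for chi-miR-133b, which did not. In the other direction, the authors' deposited table gave p = 0.0085 for chi-mir-1-p5, which did not pass with edgeR after adjustment. Its edgeR p was 0.0267 unadjusted and 0.0597 adjusted.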

How the data were processed

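Small RNA libraries of longissimus dorsi, 3 from lambs and 3 from fetuses, were sequenced on an Illumina HiSeq after TruSeq small RNA preparation and gel size selection, per the labels' protocols. No source used here names the aligner, the miRBase release or a listing minimum. The submitters' processing notes name only mm9, a mouse build, so no coordinates are printed. The authors' deposited table gives, per name, estimated counts (reads, 15.7% of values above 0 not whole within 0.001) and a normalized signal. That deposited signal equals the counts times a constant per library. It also gives p-values, as deposited by the authors. The authors' registry classes come from their deposited name list. Of 1120 names, 1119 had levels.

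Counts were rounded and tested with edgeR 4.0.16 (filterByExpr, TMM, quasi-likelihood, Benjamini-Hochberg) in R 4.3.3, with SE taken as the log2 difference over the square root of F. The design allowed limma on normalized values or edgeR on counts. The deposited counts made edgeR the main test, and limma 3.58.1 and DESeq2 1.42.0 were alternatives. Sums used log2(value + 1), and ratios and shares used the counts. All 3 were compared by two-sided exact permutation tests over 20 assignments in Python 3.11.15 with scipy 1.17.1. Ratios were added after the data were seen. All member names are named, and of other miRNAs the 3 most alike, list examples and markers. Members and lists were chosen with earlier results of these data known. The edgeR script was tested on simulated data. Names of goat genes come from the RefSeq table of ARS1.2. Intervals on shares cover counting error only.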

Additional observations from a re-analysis of the deposited data

How the results depend on the processing

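The 7 names higher in lambs kept direction and side of the threshold under all alternatives run, 17 each and 18 for chi-miR-133a-3p. Their log2 differences ranged from 2.16 to 2.77 for chi-miR-133a-3p, from 2.30 to 3.003 for chi-miR-1, from 1.73 to 2.33 for bta-miR-486_R+1 and from 0.59 to 1.20 for chi-miR-206_R-1. The number of names called higher was 7 or 8 under every alternative and without any 1 library. The number called lower in lambs, 1 here, was 0 with the same median scaling (edgeR, 0 also at an unadjusted p under 0.05) and 0 with limma at a pseudocount of 0.1 (1 at an unadjusted p under 0.05, and 1 with DESeq2), and ranged from 0 to 1 without single libraries. The log2 difference of mmu-miR-206-5p_1ss19TC turned from -0.21 to 0.0458 with the same median scaling and to 0.0288, 0.0329 and 0.0083 with limma at pseudocounts of 1, 0.1 and 10, and ranged from -0.47 to 0.16 without single libraries. That of mml-miR-133b-5p_L+2 ranged from -1.36 to 0.33 without single libraries. The lamb minus fetus difference in the log2 ratio of chi-miR-133a-3p to chi-miR-1 was -0.16 and ranged from -0.39 to 0.0961 without single libraries. The lamb minus fetus difference in the leading share of miR-1 was -0.00389 percentage points. It was 0.00565 points without new arms and ranged from -0.0200 to 0.00417 without single libraries. The cause of these changes was not tested, and no stage difference in level, ratio or share that changed sign had passed its test. With the replicate number as a block (replicate block), 8 names were higher and 1 lower, and the only member call that changed was that of chi-miR-133b (log2 difference 0.59, adjusted p = 0.0315). Deviations of same-numbered libraries correlated by 0.163, 0.365 and -0.386 across names. Those of other lamb and fetal libraries ranged from -0.628 to 0.548. Such values from 3 libraries a stage cannot settle whether same-numbered libraries are paired, and the labels do not say. Over all tested names, 116 were called higher in lambs, against 72 with the same total scaling, 67 without fetus replicate 2 and 77 without fetus replicate 3. Exact permutation results cannot pass 0.05 and say nothing of stability. The authors' constants, limma at a pseudocount of 1, the merged names and all settings for ratios were chosen after seeing the data. Few reads limit the passenger strands, miR-208a and miR-208b.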

Other observations

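A few listed names outside the group carry the seed of a member. Sbo-miR-486b_R+1_1ss23CG, matched to a squirrel monkey entry, has the seed of miR-486 and differs from bta-miR-486_R+1 by T23G within the shared bases.
sbo-miR-486b_R+1_1ss23CG: tCCTGTACtgagctgccccgaggt
It had 251, 173 and 129 TMM-scaled CPM in lambs and 50.9, 53.2 and 47.0 in fetuses. It was higher in lambs (log2 difference 1.87 ± 0.28 SE, edgeR adjusted p = 0.00282), as were the 3 names of miR-486. The platypus entry miR-133c, with the seed of miR-133a, was listed under 3 names with at most 11 reads in any library, and its form oan-miR-133c_R-1 differs from chi-miR-133a-3p by A18G.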
